A study of Homo sapiens with 12 samples.

Results

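The genes described here were NFE2L2, which encodes the transcription factor NRF2, its inhibitor KEAP1 and 8 genes of redox defense known as NRF2 targets: NQO1, HMOX1, GCLC, GCLM, GSR, TXN, TXNRD1 and SRXN1. They were chosen by gene name, with earlier results of these data known, and make up 10 of the 58735 genes in the count table. All 10 passed the filter on low counts, which left 16646 genes for testing. When AKT and EZH2 were inhibited together, 7 of the 10 transcripts fell and 3 rose (KEAP1, HMOX1 and GCLC), beside 35.2% of all tested genes lower and 38% higher than in DMSO. The fall of NFE2L2, -0.23 on the log2 scale, was -0.03 or -0.05 and did not pass under the other scalings tried, which left 6 lower. Under those scalings 4749 or 4821 of the 16646 tested genes were lower, against 5866 under the main scaling. The falls reached 3.26-fold for NQO1, whereas HMOX1, another classic NRF2 target, rose 3.51-fold.

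The libraries came from C4.2B, a castration-resistant derivative of the LNCaP prostate cancer line, in 4 arms of 3 libraries each. The DMSO arm received vehicle throughout, and the AKTi arm received vehicle followed by 0.25 uM ipatasertib for 24 hours. The EZH2i arm was exposed to 1 uM tazemetostat for 6 days and then for the same 24 hours, and the combination arm had this pretreatment and then both agents for 24 hours. Every arm spent the last 24 hours in medium with 10% charcoal-stripped FBS, which is low in steroid hormones. Since only tazemetostat was given as a pretreatment, the agent and the length of exposure cannot be told apart between the single-agent arms. Likewise, the combination against AKTi and the interaction carry the 6 days of tazemetostat pretreatment and not the last 24 hours alone. The replicates were separate plates of 1 cell line, so p-values measure the spread between plates. In bulk RNA, fewer cells carrying a transcript and less of it per cell cannot be told apart.

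NRF2 is held at a low level by KEAP1, an adaptor of the CUL3 ubiquitin ligase whose reactive cysteines sense oxidants and electrophiles. When KEAP1 is modified, NRF2 escapes degradation, pairs with a small MAF protein and binds antioxidant response elements, from which the repressor BACH1 can exclude it. The targets feed glutathione synthesis and recycling, the thioredoxin system, quinone reduction by NQO1 and heme breakdown by HMOX1. NRF2 is controlled mainly at the protein level, and only transcripts were measured here.

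Stretches around the antioxidant response element core are shown because their carriers moved in opposite directions: KEAP1 rose and GCLM and TXNRD1 fell in the combination. The core was searched as TGACNNNGC on both strands in the 250 bases upstream of RefSeq transcript starts (GRCh38.p14), and matches could overlap. Of the 10 genes, 8 were in the promoter table with 11 starts, and 4 of these 11 windows, from 3 genes, held a match. Over all 35116 windows of this length, 10.9% held one. The E-box CACGTG, searched in the same way on both strands, was in none of the 11 windows and in 6.34% of all windows. HMOX1 and GSR were not in the table. Bases outside these windows were not searched, so a window without a match does not show that the gene lacks the element. Capitals mark the core, each stretch is written 5′ to 3′ on the strand of its match, and a match is a string of letters, not a bound site.
KEAP1, chr19:10502807-10502835, minus strand, core 54 to 46 bases upstream of 1 of its 2 starts: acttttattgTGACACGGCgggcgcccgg
KEAP1, chr19:10502784-10502812, plus strand, core 31 to 23 bases upstream of the same start: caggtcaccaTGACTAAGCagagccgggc
GCLM, chr1:93909446-93909474, plus strand, core 34 to 26 bases upstream: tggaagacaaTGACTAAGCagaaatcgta
TXNRD1, chr12:104215670-104215698, plus strand, core 99 to 91 bases upstream of 1 start: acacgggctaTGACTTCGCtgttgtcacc
TXNRD1, chr12:104286920-104286948, minus strand, core 102 to 94 bases upstream of another start: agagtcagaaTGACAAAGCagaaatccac
The core TGACTAAGC was the same in the second KEAP1 stretch and in GCLM, whose transcripts moved in opposite directions in all 3 treated arms.

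Libraries held 14133755 to 22276417 counts on genes. The luminal markers KLK2, KLK3, TMPRSS2, FOLH1, HOXB13, KRT8 and KRT18 each had at least 743 counts in every library, and their summed level was 3436 to 3536 CPM (counts relative to the TMM-scaled library total) in DMSO, 5043 to 5166 with AKTi, 5779 to 5945 with EZH2i and 7364 to 7562 CPM in the combination. KLK3 made up most of this rise, from a mean of 1372 to 3941 CPM, while HOXB13 went from 424 to 294 CPM. Of the other marker lists, 4 immune genes summed to at most 1.35 CPM, 5 fibroblast genes to at most 18.7 CPM and 3 endothelial genes to at most 7.38 CPM in any library. Mitochondrially encoded transcripts took 2.37 to 3.36% of counts in DMSO, 3.93 to 4.29% in AKTi, 4.35 to 5.31% in EZH2i and 5.14 to 5.64% in the combination. The part of the luminal markers and of this mitochondrial share in the results was not tested. Scaling mattered as well: under TMM (trimmed mean of M-values), the scaling used throughout, the combination had a median log2 fold change over all genes of 0.06 from DMSO, which became 0.26 when only library size was used.

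Transcript levels per length, in TPM (counts per base of gene length relative to their sum in the library, mean ± SD, n = 3), spanned a wide range in DMSO. TXN, the small disulfide reductase thioredoxin, was the highest at 762 ± 75.4 TPM, followed by GSR at 425 ± 25.1, NQO1 at 351 ± 13.9 and TXNRD1 at 334 ± 22.8 TPM. KEAP1 stood at 104 ± 6.96 TPM, GCLM at 47.8 ± 5.58 and NFE2L2 at 43.6 ± 3.98 TPM. HMOX1 was at 23.8 ± 2.44 TPM, SRXN1 at 18.6 ± 1.08 TPM and GCLC, the catalytic subunit of glutathione synthesis, at the low end with 15.4 ± 1.24 TPM. The neighbours NQO1 and TXNRD1, and likewise GCLM and NFE2L2, differed by less than the sum of their SDs. In the combination the order was TXN (349 ± 27.5 TPM), TXNRD1 (211 ± 10.2), KEAP1 (198 ± 0.238), GSR (157 ± 3.51), NQO1 (124 ± 2.66), HMOX1 (96.5 ± 5.67), NFE2L2 (42.8 ± 2.07), GCLM (34.4 ± 0.8504), GCLC (26.5 ± 1.27) and SRXN1 (8.35 ± 1.51 TPM), with every pair of neighbours apart by more than the sum of their SDs. KEAP1, HMOX1 and GCLC moved up this order, as did TXNRD1, whose level fell, and GSR, NQO1, GCLM and SRXN1 moved down.

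**Figure D1:**
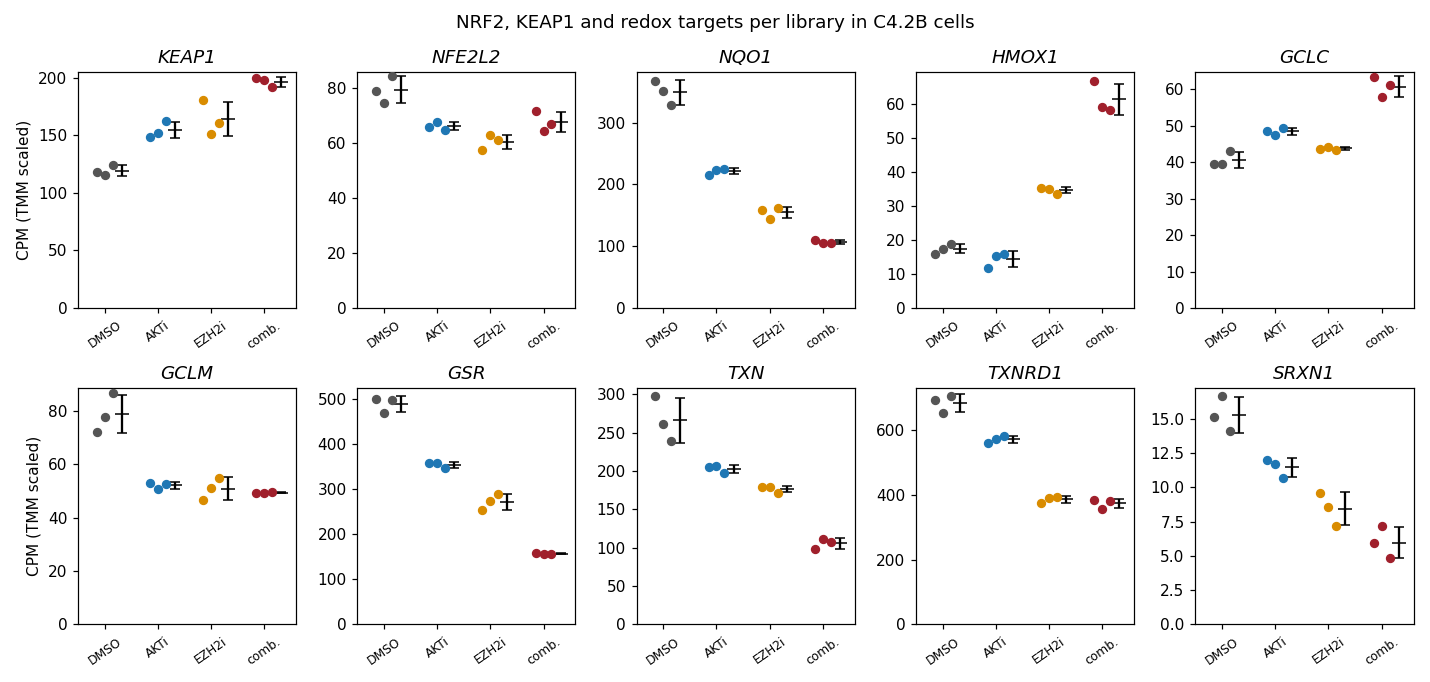
Level of each of the 10 genes in every library, in CPM scaled by TMM (vertical axes start at 0 and differ between genes), by treatment arm; "comb." is the combination, points are libraries, and the bar beside them gives the mean and SD of 3. NQO1, GSR, TXN and SRXN1 step down from DMSO to AKTi, EZH2i and the combination, while HMOX1 in the combination lies between 58.4 and 66.7 CPM, above every other arm.

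With AKTi alone, 2 of the 10 genes were higher than in DMSO and 8 were lower at an adjusted p under 0.05, against 20.6% of all tested genes higher and 21.9% lower. With EZH2i alone, 2 were higher, 7 lower and 1 (GCLC) was not called, against a background of 32.6% higher and 31.5% lower. In the combination, 3 were higher and 7 lower, against 38% and 35.2% of all genes. The median log2 fold change of the 10 genes was -0.34 with AKTi, -0.61 with EZH2i and -0.78 in the combination, where the median of all tested genes was 0.01, 0.03 and 0.06. These 3 comparisons share the DMSO libraries. Upon scaling by library size only or by upper quartile, NFE2L2 was no longer called in the combination and 6 genes were lower. The lower genes among all 16646 tested also became fewer, 4749 by library size and 4821 by upper quartile against 5866 under TMM.

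**Figure D2:**
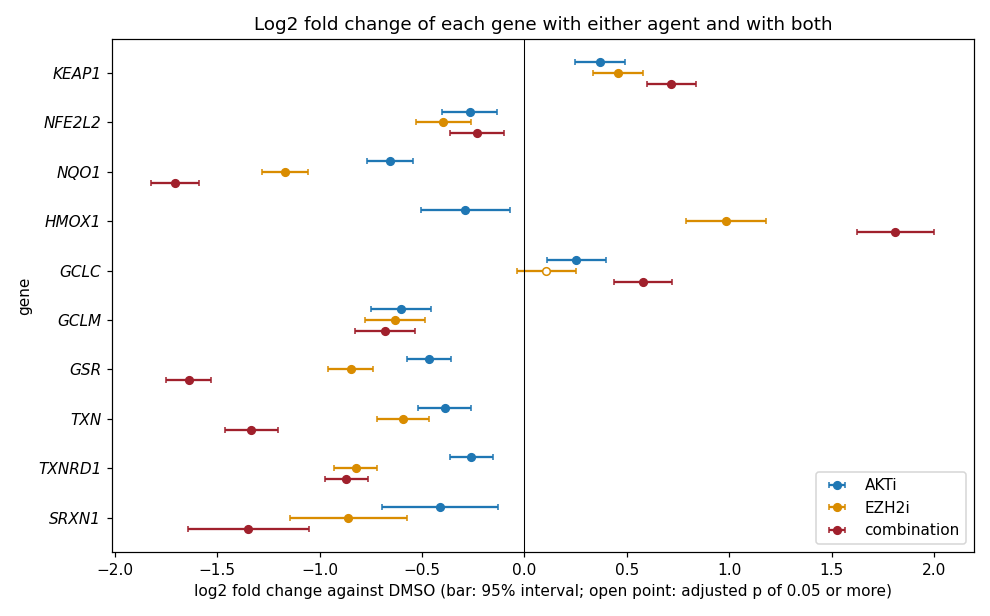
Log2 fold change of each gene (vertical axis) against DMSO (horizontal axis) with AKTi, EZH2i and the combination, with 95% intervals from the edgeR fit; an open point marks an adjusted p of 0.05 or more, and the 3 contrasts share the DMSO libraries. Combination points lie furthest left for NQO1 (-1.71), GSR (-1.64), SRXN1 (-1.35) and TXN (-1.33), and HMOX1 is the gene that lies left with AKTi (-0.29) and right with EZH2i (0.98).

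KEAP1 (ENSG00000079999; hg38 chromosome 19, 10486120 to 10503741, minus strand), the sensor that hands NRF2 to the ubiquitin ligase, was higher in every treated arm. Its level was 119, 115 and 124 CPM in the DMSO libraries, 149, 152 and 162 CPM with AKTi, 181, 151 and 160 CPM with EZH2i, and 200, 198 and 192 CPM in the combination. The combination libraries lay above all others and the DMSO libraries below all others, while AKTi and EZH2i overlapped. The log2 fold change against DMSO was 0.37 ± 0.06 (SE) with AKTi, 0.46 ± 0.06 with EZH2i and 0.72 ± 0.06 in the combination (edgeR adjusted p = 4.6e-06, 2.7e-08 and 2.6e-13).

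NFE2L2 (ENSG00000116044; chromosome 2, 177227595 to 177392697, minus strand), the gene of NRF2 itself, changed less. The DMSO libraries stood at 79.0, 74.6 and 84.5 CPM, AKTi at 65.9, 67.5 and 64.7, EZH2i at 57.6, 62.7 and 60.9, and the combination at 71.7, 64.5 and 67.1 CPM. All treated libraries were below the DMSO range, with EZH2i lowest and the combination overlapping AKTi. NFE2L2 fell by 0.27 ± 0.07 on the log2 scale with AKTi, by 0.40 ± 0.07 with EZH2i and by 0.23 ± 0.06 in the combination (edgeR adjusted p = 0.0010, 2.0e-06 and 0.0019). Scaled by library size only, the EZH2i change was -0.25 and the combination change -0.03 with an edgeR adjusted p of 0.64. The NFE2L2 annotation overlaps that of AGPS on the opposite strand. AGPS held 9437 counts over its whole length in the 12 libraries, against 13656 for NFE2L2, and the length of the overlap was not determined. Since the strand setting of the counting is not given, reads within the overlap may have been assigned to either gene or to neither.

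NQO1 (ENSG00000181019; chromosome 16, 69706996 to 69726951, minus strand), which reduces quinones by a pair of electrons and so keeps them from cycling with oxygen, fell the most of the 10 genes. It was at 367, 352 and 328 CPM in DMSO, 216, 223 and 224 CPM with AKTi, 159, 145 and 162 CPM with EZH2i and 110, 105 and 105 CPM in the combination. None of the 4 arms overlapped another, and each treated arm lay lower than the one named before it. The log2 fold change was -0.66 ± 0.06 with AKTi, -1.17 ± 0.06 with EZH2i and -1.71 ± 0.06 in the combination, the last a 3.26-fold reduction (edgeR adjusted p = 3.3e-12, 8.8e-20 and 5.3e-25).

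HMOX1 (ENSG00000100292; chromosome 22, 35380361 to 35394214, plus strand), the oxygenase that opens the heme ring and releases iron, went the other way in the arms that held tazemetostat. The DMSO libraries held 16.02, 17.5 and 18.8 CPM, AKTi 11.6, 15.3 and 15.99, EZH2i 35.4, 34.95 and 33.6, and the combination 66.7, 59.3 and 58.4 CPM. EZH2i and combination libraries were each separate from all others, and the highest AKTi library was just below the lowest DMSO library. HMOX1 rose by 0.98 ± 0.10 on the log2 scale with EZH2i and by 1.81 ± 0.09 in the combination (edgeR adjusted p = 2.8e-11 and 2.3e-19). With AKTi alone the change was -0.29 ± 0.11 (edgeR adjusted p = 0.028), a call that was lost without AKTi library A (-0.16, edgeR adjusted p = 0.26) or DMSO library C (-0.22, edgeR adjusted p = 0.15). It was also lost upon scaling by library size (edgeR adjusted p = 0.077) or upper quartile (edgeR adjusted p = 0.079) and in the fit of the 6 compared libraries (edgeR adjusted p = 0.058).

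The glutamate-cysteine ligase carries out the first and limiting step of glutathione synthesis, and its catalytic subunit GCLC and modifier subunit GCLM moved in opposite directions. GCLC (ENSG00000001084; chromosome 6, 53497341 to 53616970, minus strand) was at 39.4, 39.4 and 43.0 CPM in DMSO, 48.5, 47.6 and 49.4 with AKTi, 43.7, 44.2 and 43.5 with EZH2i, and 63.3, 57.8 and 61.1 CPM in the combination. The arms did not overlap, though EZH2i sat just above DMSO. GCLC rose by 0.25 ± 0.07 on the log2 scale with AKTi and by 0.58 ± 0.07 in the combination (edgeR adjusted p = 0.0037 and 2.2e-09). With EZH2i the difference was 0.11 (95% interval -0.04 to 0.25, edgeR adjusted p = 0.19), and it was called upon scaling by library size (0.25, edgeR adjusted p = 0.0023) or upper quartile (0.23, edgeR adjusted p = 0.0046).

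GCLM (ENSG00000023909; chromosome 1, 93885205 to 93909456, minus strand), which raises the affinity of the ligase for glutamate, fell to about the same level in all 3 treated arms. It was at 72.2, 77.9 and 86.6 CPM in DMSO, 52.9, 50.7 and 52.8 with AKTi, 46.5, 51.3 and 54.9 with EZH2i, and 49.3, 49.1 and 49.5 CPM in the combination. DMSO libraries lay above all treated libraries, and the EZH2i range covered that of the combination. The log2 fold change against DMSO was -0.60 ± 0.07 with AKTi, -0.63 ± 0.07 with EZH2i and -0.68 ± 0.07 in the combination (edgeR adjusted p = 1.3e-08, 9.0e-10 and 1.0e-10). GCLM in the combination differed from AKTi by -0.08 (95% interval -0.23 to 0.07) and from EZH2i by -0.05 (95% interval -0.20 to 0.10).

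GSR (ENSG00000104687; chromosome 8, 30678061 to 30727999, minus strand), the reductase that returns oxidized glutathione to its reduced form at the cost of NADPH, fell stepwise. Its libraries stood at 500, 468 and 496 CPM in DMSO, 357, 358 and 346 CPM with AKTi, 252, 272 and 287 CPM with EZH2i and 158, 155 and 157 CPM in the combination. No arm overlapped another. The log2 fold change was -0.46 ± 0.05 with AKTi, -0.85 ± 0.05 with EZH2i and -1.64 ± 0.05 in the combination, a 3.12-fold reduction (edgeR adjusted p = 4.0e-09, 1.9e-16 and 4.2e-25).

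All 3 genes of the thioredoxin system fell in every treated arm. TXN (ENSG00000136810; chromosome 9, 110243811 to 110256640, minus strand) was at 298, 261 and 239 CPM in DMSO, 205, 206 and 197 CPM with AKTi, 179, 179 and 171 CPM with EZH2i, and 97.6, 111 and 107 CPM in the combination. The 4 arms were separate, and the widest spread was among the DMSO libraries. TXN fell by 0.39 ± 0.06, 0.59 ± 0.06 and 1.33 ± 0.06 on the log2 scale with AKTi, EZH2i and the combination (edgeR adjusted p = 3.1e-06, 2.0e-10 and 3.1e-20).

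TXNRD1 (ENSG00000198431; chromosome 12, 104215779 to 104350305, plus strand), the selenoprotein that reduces thioredoxin with NADPH, followed EZH2i. The libraries were at 693, 652 and 706 CPM in DMSO, 559, 574 and 582 with AKTi, 375, 389 and 394 with EZH2i, and 383, 358 and 382 CPM in the combination. EZH2i and the combination overlapped, and both were below AKTi. TXNRD1 fell by 0.26 ± 0.05 on the log2 scale with AKTi, by 0.82 ± 0.05 with EZH2i and by 0.87 ± 0.05 in the combination (edgeR adjusted p = 7.7e-05, 1.9e-16 and 1.6e-17). Its annotation holds the pseudogene RPL18AP3 on the same strand (29809 counts in all, against 99070 for TXNRD1), so some of the reads may be shared.

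SRXN1 (ENSG00000271303; chromosome 20, 646615 to 653370, minus strand), sulfiredoxin, restores peroxiredoxins that peroxide has over-oxidized. It was the least abundant of the 10 genes in reads, with 80 to 124 counts per combination library, and stood at 15.2, 16.7 and 14.1 CPM in DMSO, 12.01, 11.7 and 10.7 with AKTi, 9.58, 8.59 and 7.21 with EZH2i and 5.93, 7.15 and 4.83 CPM in the combination. The arms did not overlap, but the EZH2i and combination ranges nearly met. The log2 fold change was -0.41 ± 0.14 with AKTi, -0.86 ± 0.14 with EZH2i and -1.35 ± 0.15 in the combination (edgeR adjusted p = 0.016, 1.7e-06 and 1.9e-10). The AKTi call was lost without DMSO library B (edgeR adjusted p = 0.052) or AKTi library C (edgeR adjusted p = 0.051). A gene on the same strand, AL121758.1, overlaps SRXN1 and held 209 counts against 2000.

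The combination was also compared with each single agent. It differs from AKTi by tazemetostat, including the 6 days of pretreatment. In the combination against AKTi, 3 of the 10 genes were higher and 5 lower, against 32.1% of all tested genes higher and 32.1% lower. HMOX1 changed the most, 4.29-fold (log2 fold change 2.10 ± 0.10, edgeR adjusted p = 2.6e-20), with KEAP1 (0.35) and GCLC (0.32) also higher. GSR (-1.18), NQO1 (-1.05), TXN (-0.94), SRXN1 (-0.94) and TXNRD1 (-0.61) were lower, while the differences of NFE2L2 (0.04, 95% interval -0.10 to 0.17) and GCLM did not pass. For NFE2L2 this difference was called upon scaling by library size (0.17, edgeR adjusted p = 0.020) or upper quartile (0.16, edgeR adjusted p = 0.026).

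Adding AKTi to EZH2i (combination against EZH2i) raised 4 genes and lowered 4, against 21.1% of all tested genes higher and 25.7% lower. HMOX1 (0.83), GCLC (0.47), KEAP1 (0.26) and NFE2L2 (0.17) were higher, and GSR (-0.79), TXN (-0.74), NQO1 (-0.54) and SRXN1 (-0.49) were lower. The NFE2L2 call (edgeR adjusted p = 0.037) was lost when any 1 of 5 libraries was left out, with an edgeR adjusted p of 0.25 without EZH2i library A (log2 fold change 0.10), 0.21 without combination library A, 0.10 without AKTi library A, 0.062 without combination library C and 0.051 without DMSO library A. It was also lost when all genes with at least 1 count entered the fit (edgeR adjusted p = 0.21). SRXN1 lost its call without combination library C (-0.37, edgeR adjusted p = 0.068). The difference of TXNRD1 was -0.05 (95% interval -0.15 to 0.06).

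The single agents differed from each other at 6 of the 10 genes. HMOX1 was higher with EZH2i than with AKTi (1.27 ± 0.10, edgeR adjusted p = 3.0e-13), and TXNRD1 (-0.57), NQO1 (-0.51), SRXN1 (-0.45), GSR (-0.38) and TXN (-0.20) were lower, against a background of 25.4% higher and 25.1% lower. Scaling by library size or by upper quartile changed this to 2 higher and 4 lower, since KEAP1 was then called higher and TXN was not called. All tested genes then split 5104 higher and 3293 lower by library size, and 4828 and 3551 by upper quartile. The SRXN1 call was lost without EZH2i library C (-0.36, edgeR adjusted p = 0.060), and GCLC was called without DMSO library B (-0.17, edgeR adjusted p = 0.046).

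The interaction compares the combination with the sum of the single-agent changes on the log2 scale, and is positive where the combination is higher than that sum. It passed at 6 of the 10 genes, 4 above the sum and 2 below, against 10.7% of all tested genes above and 17.5% below. HMOX1 departed the most: the single agents summed to 0.69, the combination stood at 1.81, and the interaction was 1.12 ± 0.14 (edgeR adjusted p = 5.5e-08). The AKTi change of HMOX1 was -0.29 on its own, a call lost in the 5 alternatives given above, and 0.83 in cells that also received EZH2i. GCLM (sum -1.23, combination -0.68) and NFE2L2 (sum -0.66, combination -0.23) fell less than the sum, with interactions of 0.55 ± 0.10 and 0.43 ± 0.09 (edgeR adjusted p = 7.0e-05 and 0.00043).

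GSR and TXN fell further than the single agents together. For GSR the sum was -1.31 and the combination -1.64, an interaction of -0.33 ± 0.08 (edgeR adjusted p = 0.0010), and for TXN the sum was -0.98 and the combination -1.33, an interaction of -0.35 ± 0.09 (edgeR adjusted p = 0.0026). TXNRD1 had an interaction of 0.21 ± 0.07 (edgeR adjusted p = 0.025), which was lost when all genes with at least 1 count entered the fit (edgeR adjusted p = 0.13). It was also lost without AKTi library A (edgeR adjusted p = 0.12), EZH2i library A (0.098), combination library A (0.072), combination library C (0.065), DMSO library A (0.061) or DMSO library C (0.056). The interaction did not pass for GCLC (0.22, 95% interval 0.02 to 0.42, edgeR adjusted p = 0.098), NQO1 (0.12, interval -0.04 to 0.28), KEAP1 (-0.11, interval -0.28 to 0.06) or SRXN1 (-0.08, interval -0.50 to 0.34). With genes of at least 10 counts in every library, that of GCLC was 0.25 with an edgeR adjusted p of 0.045.

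**Figure D3:**
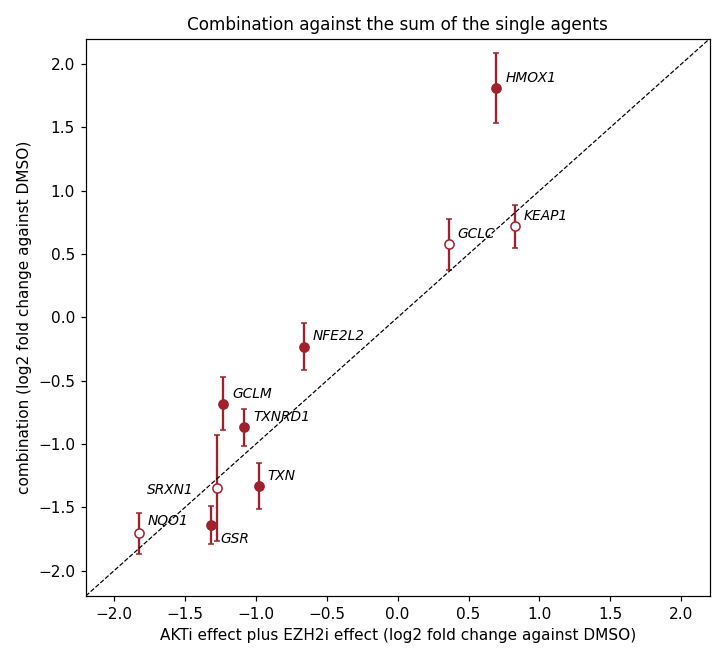
Log2 fold change in the combination (vertical axis) against the sum of the AKTi and EZH2i log2 fold changes (horizontal axis), all against DMSO; bars are the 95% interval of the interaction, filled points passed the interaction test, and on the dashed line the combination equals the sum. HMOX1 lies above the line by 1.12, GCLM and NFE2L2 above it by 0.55 and 0.43, and GSR and TXN below it.

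Because members of a shared machine moved apart, their ratios per library were formed from TPM after the values had been seen, and are a description without a test. The GCLC/GCLM ratio, catalytic over modifier subunit of the ligase, was 0.323 ± 0.0161 in DMSO, 0.584 ± 0.00729 with AKTi, 0.542 ± 0.0468 with EZH2i and 0.772 ± 0.0333 in the combination (SD, n = 3). The KEAP1/NFE2L2 ratio was 2.39 ± 0.0609, 3.72 ± 0.230, 4.34 ± 0.588 and 4.62 ± 0.233 in the same order. DMSO was thus the lowest arm for both ratios, and combination libraries were the highest for GCLC/GCLM but overlapped EZH2i for KEAP1/NFE2L2. HMOX1/NQO1 went from 0.0680 ± 0.00931 in DMSO and 0.0873 ± 0.0125 with AKTi to 0.303 ± 0.0229 with EZH2i and 0.778 ± 0.0352 in the combination. TXNRD1/TXN, reductase over its substrate, was 0.442 ± 0.0555, 0.481 ± 0.0199, 0.373 ± 0.0179 and 0.607 ± 0.0602, lowest with EZH2i and highest in the combination.

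**Figure D4:**
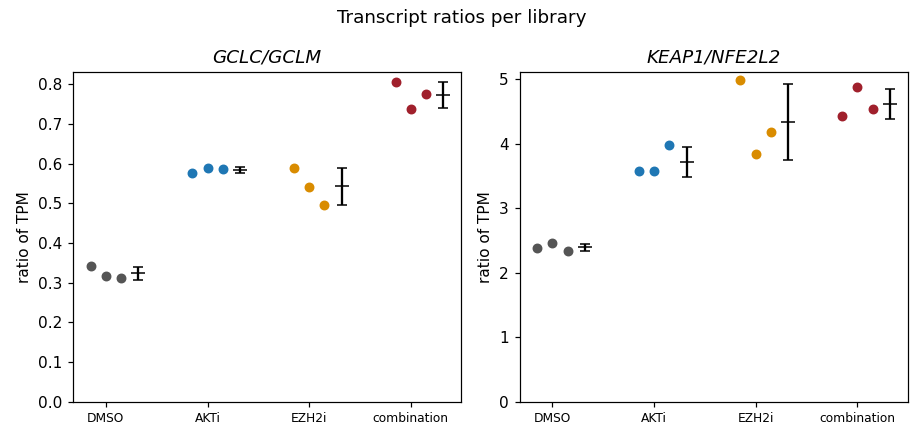
Ratio of TPM of GCLC to GCLM and of KEAP1 to NFE2L2 in each library (vertical axes, from 0) by treatment arm; points are libraries, and bars give the mean and SD of 3. GCLC/GCLM rises from 0.323 in DMSO to 0.772 in the combination, and KEAP1/NFE2L2 from 2.39 to 4.62.

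The wider pathway was described with 7 lists of 102 further genes, of which 89 passed the filter. The lists, too, were chosen with earlier results of these data known. In the combination 36 of the 89 were higher (40.4%) and 43 lower (48.3%) than in DMSO, beside 38% and 35.2% of all tested genes, and their median log2 fold change was -0.13. Under the other scalings 41 were higher and 39 lower by library size, and 40 and 39 by upper quartile. All tested genes shifted as well, to 7574 higher and 4749 lower and to 7502 and 4821. Higher genes were 51.2% and 50.6% of the called genes in the lists, beside 61.5% and 60.9% of all called genes. Under TMM these shares were 45.6% and 51.9%. AKTi alone gave 27 higher and 32 lower (30.3% and 36%, beside 20.6% and 21.9% of all tested genes). Both other scalings gave 32 and 31, where all tested genes split 4112 and 3023 by library size and 4110 and 3040 by upper quartile. EZH2i alone gave 27 higher and 41 lower (30.3% and 46.1%, beside 32.6% and 31.5%). By library size the split was 34 and 36, with 6630 and 4193 for all tested genes. By upper quartile it was 34 and 37, with 6412 and 4374 for all tested genes. Higher genes were thus 48.6% and 47.9% of the called genes in the lists, beside 61.3% and 59.4% of all called genes. Among the partners, competitors and degradation machinery of NRF2, 7 of 16 tested genes rose and 5 fell in the combination. These are 43.8% and 31.2%, near the 38% and 35.2% of all tested genes. The split was 9 and 4 after library size scaling, where all tested genes split 7574 higher and 4749 lower. It was 8 and 4 after upper quartile scaling, where all tested genes split 7502 and 4821. The small MAF protein gene MAFF (2.27), the autophagy receptor SQSTM1 that sequesters KEAP1 (1.22) and the repressor BACH1 (1.15) rose the most. RBX1 (-1.27), the RING subunit of the KEAP1 ligase, DPP3 (-0.95), a peptidase that binds KEAP1, and CUL1 (-0.76), the scaffold of a KEAP1-independent NRF2 ligase, fell the most, whereas CUL3 differed by -0.13 (edgeR adjusted p = 0.11). BACH1 went from 25.1 ± 0.440 CPM in DMSO to 32.1 ± 0.924 with AKTi, 30.9 ± 3.86 with EZH2i and 55.5 ± 4.61 CPM in the combination, and MAFF stayed low, at 1.19 ± 0.298 CPM in DMSO and 5.79 ± 0.411 CPM in the combination.

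Of 22 tested genes of glutathione use and supply, 10 rose and 11 fell (45.5% and 50%, beside 38% and 35.2% of all tested genes). Both other scalings gave 10 and 9, where all tested genes split 7574 and 4749 by library size and 7502 and 4821 by upper quartile. The peroxidase GPX3 (1.64), the glutathione-degrading CHAC1 (1.53) and the microsomal glutathione transferase MGST3 (0.80) rose the most, and CHAC2 (-3.26) and the related transferases MGST1 (-1.43) and MGST2 (-1.11) fell the most. GPX3 stayed low, at 0.823 ± 0.131 CPM in DMSO and 2.60 ± 0.437 CPM in the combination. CHAC1 and CHAC2, which cleave the same substrate, moved apart: CHAC1 went from 20.7 ± 1.43 to 59.6 ± 2.19 CPM and CHAC2 from 13.8 ± 0.792 to 1.46 ± 0.815 CPM. SLC7A11, the cystine importer that supplies glutathione synthesis, is named here after its values were seen. It was at 329 ± 14.8 CPM in DMSO, 215 ± 16.3 with AKTi and 109 ± 10.0 with EZH2i, yet at 410 ± 22.4 CPM in the combination (log2 fold change 0.32 ± 0.06 against DMSO, and 0.51 or 0.50 upon scaling by library size or upper quartile). Its interaction was 2.52 ± 0.09 (edgeR adjusted p = 3.5e-22), and across this list 4 of 22 genes lay above the sum of the single agents and 10 below (18.2% and 45.5%, beside 10.7% and 17.5% of all tested genes).

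In the thioredoxin and peroxiredoxin list, 9 of 18 genes rose and 7 fell (50% and 38.9%, beside 38% and 35.2% of all tested genes). TXNIP, the protein that binds and inhibits thioredoxin, rose 13.8-fold while TXN fell: its level was 102 ± 3.30 CPM in DMSO, 205 ± 7.71 with AKTi, 388 ± 14.03 with EZH2i and 1409 ± 40.9 CPM in the combination. The sestrins SESN1 (3.22) and SESN3 (1.84) rose as well, and the peroxiredoxins PRDX4 (-1.81), PRDX1 (-1.49) and PRDX3 (-1.29), which thioredoxin or its relatives keep reduced, fell the most. PRDX2 (-1.07) and PRDX6 (-0.61) fell too, but PRDX5 rose by 1.16, from 85.5 ± 2.82 to 191 ± 4.05 CPM, and these last genes are named after their values were seen. The NADPH supply list holds 6 enzymes that make NADPH, the electron source of GSR and TXNRD1, and the pentose phosphate enzymes TKT and TALDO1, which make none themselves. Of these 8 genes 7 fell and 1 rose (87.5% and 12.5%, beside 35.2% and 38% of all tested genes), with a median of -0.96 on the log2 scale against 0.06 for all tested genes. Malic enzyme ME1 (-1.60), TKT (-1.28) and PGD (-1.04), an NADPH-making enzyme of the pentose phosphate pathway, fell the most, and the mitochondrial transhydrogenase NNT rose (1.35). Under library size and upper quartile scaling the split was also 1 higher to 7 lower, where all tested genes split 7574 to 4749 and 7502 to 4821.

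Heme and iron genes split 4 higher and 5 lower among 10 tested (40% and 50%, beside 38% and 35.2% of all tested genes). Both other scalings gave 5 and 5, where all tested genes split 7574 and 4749 by library size and 7502 and 4821 by upper quartile. The ferritin chains FTL (1.18) and FTH1 (0.53) and the iron exporter SLC40A1 (0.54) rose, while the transferrin receptor TFRC (-3.25), the first enzyme of heme synthesis ALAS1 (-1.04) and the last, FECH (-0.78), fell. Mean FTL was 143 CPM in DMSO, 277 with AKTi, 195 with EZH2i and 324 CPM in the combination. In the same order FTH1 was at 627, 668, 596 and 905 CPM and SLC40A1 at 4.67, 4.11, 6.42 and 6.82 CPM. TFRC dropped from 1078 ± 37.6 CPM in DMSO to 709 ± 30.6 with AKTi, 350 ± 28.6 with EZH2i and 113 ± 4.30 CPM in the combination. Among 11 tested genes of quinone, carbonyl and xenobiotic handling, 3 rose and 6 fell (27.3% and 54.5%, beside 38% and 35.2% of all tested genes). With either other scaling the split was 4 and 5, with 44.4% of the called genes higher, beside 61.5% or 60.9% of all called genes. The 3 include AKR1C3 and AKR1C2, which passed the filter only through the arms with tazemetostat, and with genes of at least 10 counts in every library 1 rose. The carbonyl reductases CBR1 (-1.83) and CBR3 (-1.72) and UGDH (-1.00) fell beside NQO1, with CBR3 at -2.45 without combination library A, and the exporter ABCC4 rose (1.48). The related AKR1C3 and AKR1C2, some of whose reads may not be split with certainty, also rose from a few counts. AKR1C3 went from 4 counts over the DMSO libraries to 119 over the combination libraries, a ratio of 27.3 (95% interval 10.4 to 102, counting error only). AKR1C2 went from 3 to 30 counts, a ratio of 9.19 (95% interval 2.86 to 47.0). Of the 4 genes that remove superoxide and peroxide, SOD3 (1.25) and CAT (0.26) rose and SOD1 (-0.72) and SOD2 (-0.64) fell. The 13 listed genes that did not pass the filter were BACH2, GPX2, GPX7, GSTM1, GSTM2, GSTM4, GSTP1, AKR1B1, AKR1B10, AKR1C1, ALDH3A1, ABCC2 and ABCC3.

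**Figure D5:**
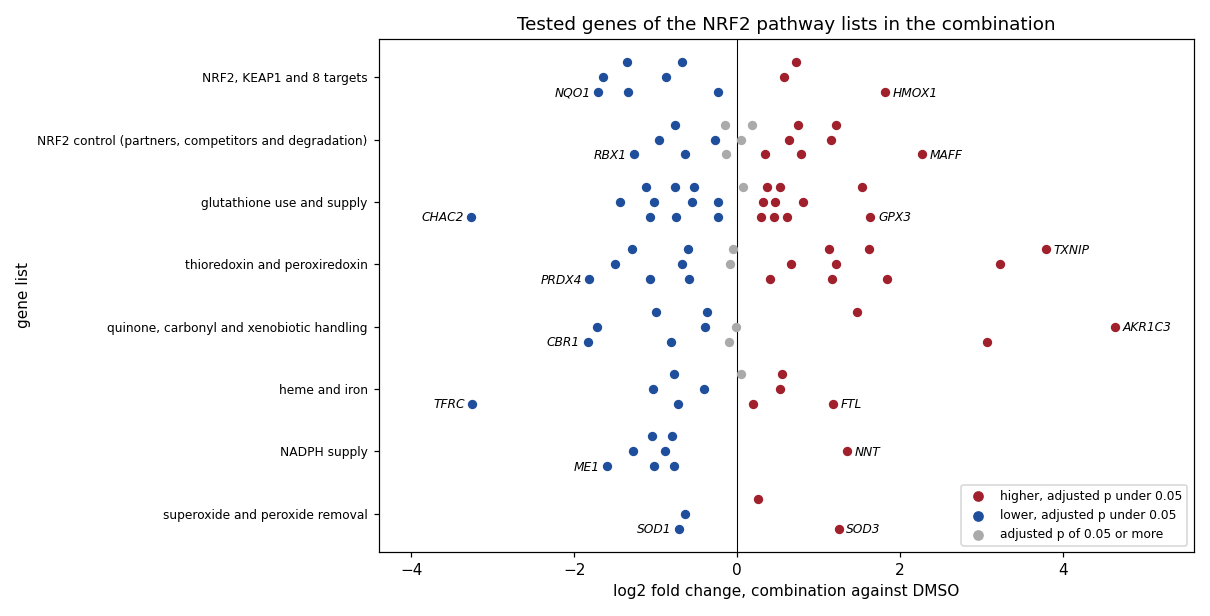
Log2 fold change in the combination against DMSO (horizontal axis) of each tested gene, by list (vertical axis; position within a row only separates points): the 10 genes in the top row and the 7 pathway lists below. Colors mark the edgeR adjusted p, the lowest and highest gene of each list is named, AKR1C3 rests on 4 DMSO counts, and 7 of 8 NADPH supply genes lie left of 0.

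The genes whose pattern over the 3 treated arms was most like that of NFE2L2, among 11366 protein-coding genes with a mean of at least 1 log2 CPM, were C17orf80, IFT88 and OTULIN. Their log2 changes from DMSO differed from those of NFE2L2 by a root mean square of 0.0164, 0.0273 and 0.0318 over the 3 arms. For KEAP1 they were NPEPPS (0.0141), WDFY1 (0.0155) and STAG3 (0.0200). Likeness over 3 arm means that share DMSO is a description of these libraries.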

How the data were processed

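PolyA RNA of C4.2B cells was sequenced in 12 libraries, 3 per arm. Per the submitters' notes and the study's methods, the authors aligned reads to hg38 with STAR and counted them on genes with HTSeq, and the deposited values used here are these raw counts. Tool versions, gene annotation and strand setting are not given in the sources used here. The deposited table also holds gene lengths, from which TPM were computed, and the authors' DESeq2-normalized values were not used here. Sequencing was by NextSeq 500 or by Novogene without an assignment of libraries, so that batch could not be modelled. Groups came from the sample titles, and the counts of replicates within each arm differed by more than sampling noise.

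Counts were analysed in R 4.3.3 with edgeR 4.0.16 (filterByExpr, minimum count 10 and minimum total 15, TMM). Each arm had 1 mean in a quasi-likelihood fit of the 12 libraries together, and p-values of the 7 contrasts were adjusted by Benjamini-Hochberg over 16646 genes at a threshold of 0.05. The study's methods name DESeq2, which was run as an alternative (version 1.42.0). Scaling was also done by library size or upper quartile, the filter was set to 1 count in total or to 10 counts in every library, the fit was restricted to the arms compared, the replicate letter was added as a block, and each library was left out once. The list counts and SLC7A11 were recomputed under these settings as well, a choice made after the data were seen. At 80 to 14729 counts per library for the 10 genes, counting error is small for all but SRXN1 and HMOX1. The script was checked on simulated data.

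Members and lists were chosen with earlier results of these data known. The genes named are the 10 members, up to 3 called genes with the largest and up to 3 with the smallest combination log2 fold change per list, listed genes that failed the filter, and the 3 genes nearest in pattern to NFE2L2 and to KEAP1. SLC7A11, CUL3, PRDX2, PRDX5, PRDX6 and the ratios were added after their values were seen. Promoter windows came from RefSeq (GRCh38.p14). Some marker genes of the luminal list are not reported here.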

Additional observations from a re-analysis of the deposited data

Results flagged for a closer look

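At 6 of the 10 genes the effect of 1 inhibitor differed with the other inhibitor present, by the edgeR interaction test, 4 above the sum of the single agents and 2 below, beside 10.7% and 17.5% of all tested genes. The interaction on the log2 scale was 1.12 for HMOX1 (adjusted p = 5.5e-08), where the AKTi change was -0.29 without EZH2i and 0.83 with it. The call of the -0.29 was lost in 5 refits. For GCLM it was 0.55 (adjusted p = 7.0e-05), as the AKTi change was -0.60 without EZH2i and -0.05 with it. NFE2L2 had 0.43 (adjusted p = 0.00043), with AKTi changes of -0.27 and 0.17, the latter a call lost in 6 refits. TXNRD1 had 0.21 (adjusted p = 0.025), with AKTi changes of -0.26 and -0.05, and lost this call in 7 refits (adjusted p from 0.056 to 0.13). GSR had -0.33 (adjusted p = 0.0010), with AKTi changes of -0.46 and -0.79, and TXN had -0.35 (adjusted p = 0.0026), with AKTi changes of -0.39 and -0.74.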

How the results depend on the processing

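Of 70 results (10 genes in 7 comparisons) refitted under the alternatives, 52 kept their direction and call in every refit. Over 1320 refits, 26 lost a call, 8 gained one and 16 changed sign, all of the last for differences that had not passed the test. GCLM changed sign with library size and upper quartile scaling in the combination against AKTi (0.058 and 0.046), in the combination against EZH2i (0.0021 and 0.016) and in EZH2i against AKTi (0.055 and 0.031, and 0.0019 with at least 10 counts in every library). TXNRD1 did so in the combination against EZH2i (0.0066 and 0.020). With 1 library left out, the range was -0.022 to 0.067 for NFE2L2 in the combination against AKTi, -0.14 to 0.031 for GCLM in the combination against EZH2i, and -0.12 to 0.0073 for GCLM in EZH2i against AKTi. It was -0.0069 to 0.14 for KEAP1 in EZH2i against AKTi and -0.23 to 0.044 for the SRXN1 interaction. The number of the 10 genes called higher in EZH2i against AKTi was 1 and became 2 under library size scaling and 2 under upper quartile scaling. For all tested genes it was 4226 and became 5104 and 4828. The cause of these changes was not tested. Both other scalings raise the median of all genes in the combination against DMSO from 0.06 to 0.26 or 0.25 and the share of higher among called genes from 51.9% to 61.5% or 60.9%.

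The labels do not say whether same-lettered plates were handled together. Deviations from the arm means correlated weakly between same-lettered libraries, by -0.028 to 0.052 for A, -0.048 to 0.0068 for B and -0.058 to 0.069 for C. Of 12 libraries, 4 correlated best with their own letter. With a replicate block, 3 of the 10 genes were higher and 7 lower in the combination, as without it, and no count of called members changed. Limits are 1 cell line, 1 time point and 3 plates per arm, with SRXN1 at 80 to 294 counts per library. Protein, NRF2 localization and redox state were not measured in these libraries.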
